A study of Mus musculus with 4 samples.

Results

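The replication-dependent core histone genes encode the H2A, H2B, H3 and H4 proteins that package newly replicated DNA. They were chosen by symbol in the NCBIM37 annotation, as all genes of the count tables named Hist1h2, Hist1h3, Hist1h4, Hist2h, Hist3h or Hist4h followed by their own suffix, without the linker histone H1. The rule found 53 genes among 43629 identifiers, of which 18 were H2A, 16 H2B, 7 H3 and 12 H4 genes. RNA came from CD117+ hematopoietic stem and progenitor cells (HSPCs) of C57Bl/6 mice that were Chaf1b fl/fl in both groups, grown in Stemspan SFEMII with 50 ng/mL SCF, 10 ng/mL IL-3, LDL and IL-6. The labels give IL-6 at 20 ng/mL, and the study's methods give a lower dose. Controls were spinfected with the empty MIGR1 retrovirus and deleted cells with MIGR1-Cre, and eGFP+ cells were sorted after 48 h. Each group had 2 libraries of total RNA depleted of ribosomal RNA. Deletion therefore depended on delivery of Cre by the retrovirus and on the eGFP sort, and the age and sex of the animals are not given in the labels. The study's methods give an age range for its mice and say that males and females were used equally, without tying either to a library. Counts on genes numbered 22736626 and 25409926 in control replicates 1 and 2 and 23539015 and 18468637 in Chaf1b-deleted replicates 1 and 2.

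CAF-1, of which Chaf1b is a subunit, deposits H3 and H4 on DNA behind the replication fork. The core histone genes supply those proteins. They lie in clusters, are transcribed mainly in S phase, mostly lack introns, and make mRNAs that end in a conserved stem-loop in place of a poly(A) tail. The stem-loop binding protein Slbp and the U7 small nuclear ribonucleoprotein guide the cut that forms that end, and histone mRNA is degraded when replication stops. Because the libraries were made from total RNA, mRNAs without a poly(A) tail could be counted.

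The stem-loop was a feature that the choice of genes did not use. The search used 16 bases with G at positions 1 and 2, T at 6, 7 and 9, A at 11, C at 15 and 16, and any base between. Within 150 bases after the stop codon these letters occurred on the coding strand in 46 of the 50 members with an annotated stop codon, and in each of the 46 the stem was fully paired. The same letters occurred in 84 of 21903 other protein-coding genes, or 0.384%. A paired stem was found in 10 of those 84, and 6 of them encode a linker histone. The members without the letters were Hist2h2bb, Hist2h2be, Hist1h2an and Hist1h2al. The loops of abundant members are shown because they carry the shared 3′ end, with the 16 bases of the stem-loop in capitals and 5 bases on either side:
Hist1h2ak, chr13:21845246-21845271, minus strand: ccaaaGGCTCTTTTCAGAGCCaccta
Hist2h2ac, chr3:96024336-96024361, minus strand: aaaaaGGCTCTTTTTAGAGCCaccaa
Hist1h2bb, chr13:23839067-23839092, plus strand: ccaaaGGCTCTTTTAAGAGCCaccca
Hist1h2bh, chr13:23634792-23634817, minus strand: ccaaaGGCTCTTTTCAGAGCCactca
Hist1h3b, chr13:23844684-23844709, plus strand: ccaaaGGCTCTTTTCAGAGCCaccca
Hist1h3e, chr13:23653767-23653792, minus strand: aaaacGGCTCTTTTAAGAGCCacctc
Hist1h4d, chr13:23673814-23673839, plus strand: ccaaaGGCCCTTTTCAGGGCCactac
Hist1h4c, chr13:23789953-23789978, minus strand: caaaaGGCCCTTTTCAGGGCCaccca
All coordinates here are NCBIM37, counted from 1, and these stretches lie in or just beyond the annotated 3′ end of each gene. The loop began between 22 and 59 bases after the stop codon. The 46 loops had 7 distinct sequences. The most frequent stood in 27 members, which were 13 H2A, 10 H2B and 4 H3 genes, and in no H4 gene. The H4 genes carried other versions, of which the most frequent stood in 7 members.

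Chaf1b was measured first because it checks the labels. Its level was 80.3 and 57.9 counts per 1000000 counts on genes (CPM) in control replicates 1 and 2, and 16.1 and 17.9 CPM in the deleted replicates. Both deleted libraries lay below both controls. Chaf1b fell by 2.01 on the log2 scale (SE 0.25, adjusted p = 0.0330, edgeR's quasi-likelihood test after Benjamini-Hochberg adjustment over 16500 genes). The call was lost with at least 10 counts in every library (adjusted p = 0.0651 in edgeR's quasi-likelihood test), with the replicate block (0.0592) and at 2-fold with an adjusted p under 0.01. Over all alternatives the adjusted p ranged from 1.70e-09 to 0.0651 in edgeR's or DESeq2's tests after Benjamini-Hochberg adjustment, with a log2 fold change between -2.24 and -1.74, and -2.03 without deleted replicate 1. This p-value and those that follow measure only the spread between these samples, since nothing in the labels says that replicates came from separate cultures or animals.

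Chaf1b-deleted replicate 1 stood apart from the other 3 libraries in genes unrelated to histones. Xist, the RNA that silences an X chromosome in females, had 7905 counts there and 26, 33 and 23 in control replicates 1 and 2 and deleted replicate 2. The 4 Y-linked genes summed to 3 counts there and to 7373, 7771 and 5805 in the same 3 libraries. By these genes deleted replicate 1 had a female pattern and the other 3 libraries a male one. The deleted group thus mixed both patterns, and the replicate block paired deleted replicate 1 with a control of the other pattern. Summed CPM of 10 interferon-stimulated genes was 1300 in deleted replicate 1, while control replicates 1 and 2 had 99.1 and 120 and deleted replicate 2 had 140. Whether these differences bear on the histone results was not tested, so values with and without this library are given for the summed levels, the calls of members and the members of largest change or level.

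Not every core histone gene could be measured. The annotation holds 64 genes that meet the rule, and 11 of them are absent from the count tables and were not analysed here, namely Hist1h2ao, Hist1h2ap, Hist1h2bl, Hist1h2bm, Hist1h2bn, Hist1h3d, Hist1h3f, Hist1h3g, Hist1h3h, Hist1h3i and Hist4h4. The Hist4 cluster is therefore not described, and the H3 sum and shares of H3 counts cover only the 7 H3 genes in the tables. Of the 53 members, 45 passed the filter on low counts and were tested. The other 8 had at most 14 counts in a library, and Hist2h2aa1, Hist2h2aa2, Hist2h3b and Hist2h3c1 had 0 counts in all 4 libraries. A count of 0 allows up to 3 counts, or 0.118 to 0.162 CPM depending on the library. Histone genes are close copies of each other. In the median member, 57.8% of exonic stretches of 31 bases also occurred elsewhere in the genome, and in 17 of the 53 the share was under 50%. For Hist2h2aa1 and Hist2h2aa2 no such stretch is their own, and for Hist2h3b and Hist2h3c1 80.6% and 58.8% occur elsewhere. Reads that aligned to more than 1 place were set aside by the counting, so a member's count is a lower limit that depends on how much of its sequence is its own. They made up between 15.5% and 18.2% of all alignments tallied in a library, where unaligned reads are not included. The counts of Hist1h2ac, Hist1h2be and Hist3h2a are less certain because an exon of another gene overlaps them on the same strand. Hist2h2aa1 and Hist2h3c1 overlap each other in the same way, so their 0 counts are less certain too. Hist2h2ab, Hist1h4b and Hist1h2aj overlap an exon of another gene on the opposite strand. As the strand setting of the counting is not given, their counts may be less certain as well.

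The summed level of all 53 members moved in opposite directions in the deleted libraries. It was 4376 CPM (95% Wilson interval 4349 to 4404) and 4107 CPM (4082 to 4132) in control replicates 1 and 2. In deleted replicates 1 and 2 it was 5271 CPM (5242 to 5300) and 3447 CPM (3421 to 3474). These intervals cover counting error only. Deleted replicate 1 was the highest and deleted replicate 2 the lowest of the 4 libraries, so the deleted libraries lay on either side of the controls. The mean was 4241 ± 191 CPM (SD, n = 2) in controls and 4359 ± 1290 CPM (SD, n = 2) in deleted cells. The log2 ratio of the means was 0.040, far within the spread between the deleted libraries (exact permutation test, two-sided, p = 1.00, where the smallest p that 2 against 2 libraries allow is 0.333, so 0.05 cannot be reached). Without deleted replicate 1 the ratio was -0.30, and without deleted replicate 2 it was 0.31, so either library alone sets the direction. The share of all tallied alignments that lay outside genes had the reverse order at its ends. It was 34.6% and 35.0% in control replicates 1 and 2 and 29.3% and 40.8% in deleted replicates 1 and 2. Whether it bears on the histone sums was not tested. In bulk RNA, fewer cells in S phase and less histone mRNA in each such cell cannot be told apart.

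Each class showed the same order at its ends. H2A, which pairs with H2B, summed to 610 and 543 CPM in the controls and to 952 and 522 CPM in deleted replicates 1 and 2. H2B summed to 1172 and 978 CPM in the controls and to 1235 and 817 CPM in the deleted libraries. In all 4 classes deleted replicate 1 was the highest library and deleted replicate 2 the lowest, and the groups overlapped. H3 summed to 692 and 606 CPM in controls and to 882 and 499 CPM in deleted cells. H4, with which H3 forms the tetramer that CAF-1 delivers, summed to 1902 and 1980 CPM in controls and to 2203 and 1609 CPM in deleted cells. The log2 ratios of the group means were 0.35 for H2A, -0.067 for H2B, 0.089 for H3 and -0.026 for H4, and the exact permutation p was 1.00 for each. Without deleted replicate 1 they were -0.14, -0.40, -0.38 and -0.27. For H4 the ratio is so near 0 that scaling by TMM turned its sign, to 0.017.

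The share of each class in the pool was compared as well. H2A genes held 13.9% and 13.2% of core histone counts in the controls and 18.1% and 15.1% in deleted replicates 1 and 2. Both deleted libraries were above both controls, by 3.02 percentage points on average, and by 1.57 without deleted replicate 1 (exact permutation p = 0.333 over the 4 libraries, the smallest possible). H2B genes held 26.8% and 23.8% in controls and 23.4% and 23.7% in deleted cells, where the highest deleted value lay just under the lower control. H3 genes held 15.8% and 14.8% in controls and 16.7% and 14.5% in deleted cells. H4 genes held 43.5% and 48.2% in controls and 41.8% and 46.7% in deleted cells, and for H3 and H4 the groups overlapped.

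**Figure D1:**
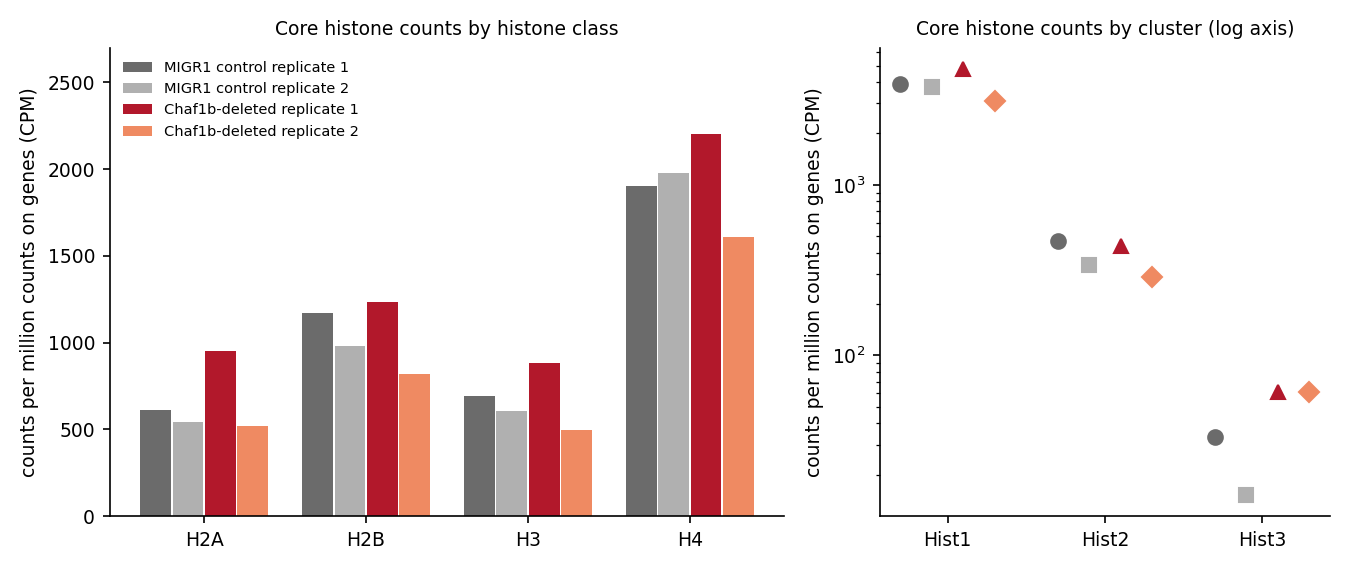
Summed CPM of the core histone genes in each of the 4 libraries, by class as bars on the left and by genomic cluster as points on a log axis on the right. In each class Chaf1b-deleted replicate 1 is the highest bar and replicate 2 the lowest, while for Hist3 both deleted libraries, at 61.1 CPM, lie above the controls at 33.1 and 15.2 CPM.

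By genomic cluster, only Hist3 on chromosome 11 had both deleted libraries on the same side of the controls. The 40 Hist1 members on chromosome 13 form the main cluster, except Hist1h2al, which lies outside it. They summed to 3876 and 3755 CPM in controls and to 4775 and 3096 CPM in deleted replicates 1 and 2. The 10 Hist2 members on chromosome 3 summed to 467 and 337 CPM in controls and to 435 and 290 CPM in deleted cells. In both clusters the groups overlapped, with log2 ratios of 0.045 for Hist1 and -0.15 for Hist2. Without deleted replicate 1 they were -0.30 and -0.47, and without deleted replicate 2 they were 0.32 and 0.11. The sign for each of these clusters thus depends on single libraries. The 3 Hist3 members summed to 33.1 and 15.2 CPM in controls and to 61.1 CPM in each deleted library. Their log2 ratio was 1.34, and 1.34 without either deleted library (exact permutation p = 0.333). It was 2.01 without control replicate 1 and 0.89 without control replicate 2, so the spread of the controls sets its size.

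Gene by gene, 1 of the 45 tested members was called higher in deleted cells and 0 were called lower, at a change of at least 1.5-fold and an adjusted p under 0.05 in edgeR's quasi-likelihood test. Over all 16500 tested genes, 61 were called higher (0.370%) and 1 lower (0.00606%), and the lower gene was Chaf1b. At an unadjusted p under 0.05, 7 members were higher and 0 lower, against 1510 genes higher (9.15%) and 512 lower (3.10%) over the table. edgeR's exact test called 4 members higher, against 518 genes (3.14%), and DESeq2 also called 4, against 471 genes (2.85%). Neither tool called a member lower. With both deleted libraries above both controls there were 10 members, where 22.3% of all tested genes had that order, and with both below there were 0, against 21.4%. Hist1h2aa and Hist1h2ba, which passed the low-count filter only through their deleted libraries, are in the 7, in the 4 of each tool and in the 10. Hist1h2al, with 7 and 18 counts in controls, also needed a deleted library to pass and is in the 7 and in the 10. These counts are therefore partly conditioned on the outcome. The median log2 fold change was 0.21 over the 45 members and -0.030 over all tested genes. It was -0.25 over the members without deleted replicate 1 and 0.63 without deleted replicate 2, so its sign rests on a single library.

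**Figure D2:**
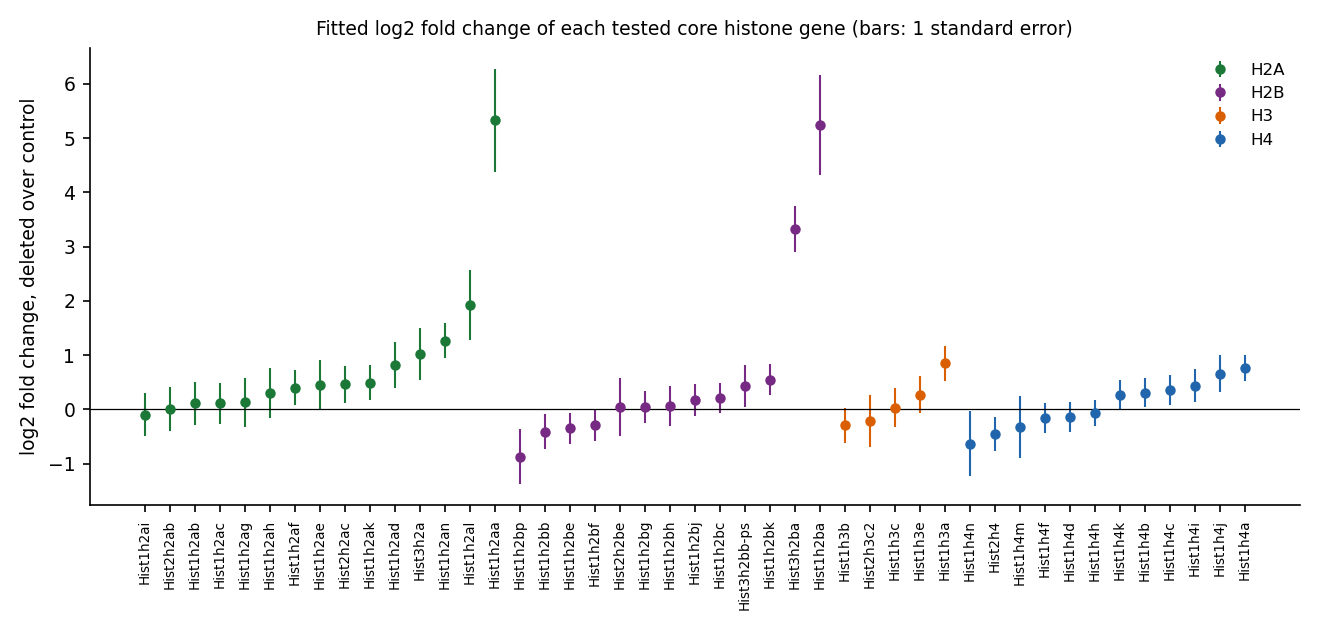
Points give the fitted log2 fold change of each of the 45 tested members, deleted over control, grouped by class and ordered within it, and bars give 1 standard error. Most members lie near 0, while Hist1h2aa at 5.33, Hist1h2ba at 5.24 and Hist3h2ba at 3.32 stand above the rest.

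The split between the deleted libraries ran through most members. In deleted replicate 1, 36 of the 45 members were above both controls and 0 below both, where 36.6% of all tested genes were above and 40.8% below. In deleted replicate 2, 10 were above both controls and 25 below both, where 38.4% of all tested genes were above and 37.8% below. The median log2 ratio to the mean of the controls, on TMM-normalized CPM plus 0.5, was 0.59 over the members in deleted replicate 1 and -0.24 in deleted replicate 2. Over all tested genes these medians were -0.043 and -0.0098. Between the controls the members differed less, with medians of 0.11 and -0.12.

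**Figure D3:**
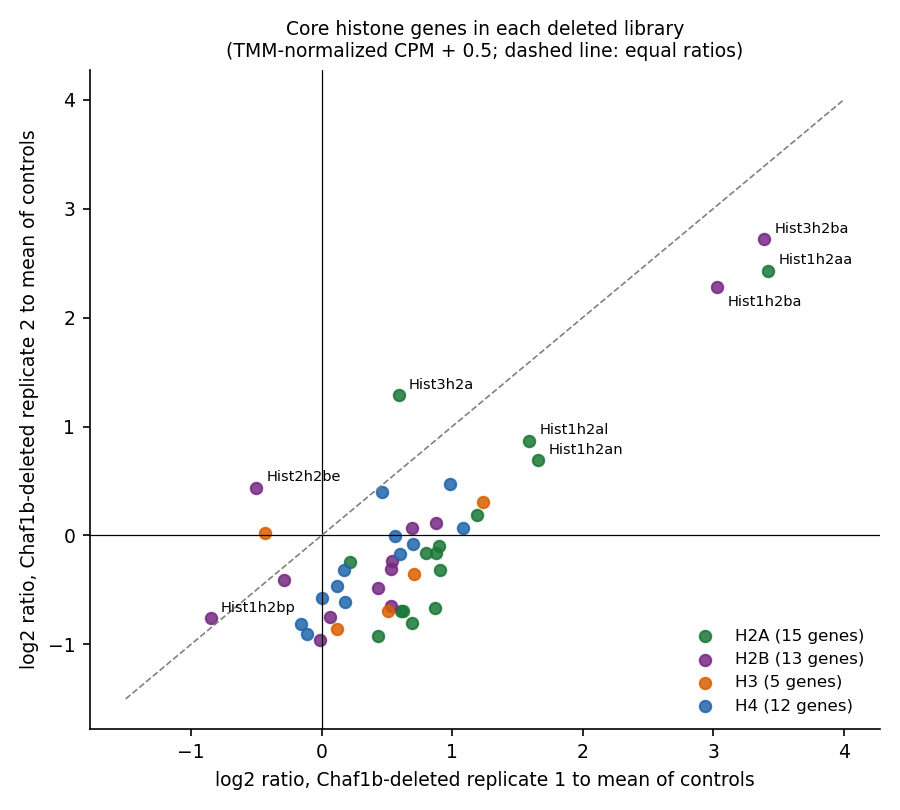
Each point is a tested core histone gene, colored by class, with its log2 ratio to the control mean in Chaf1b-deleted replicate 1 on the horizontal axis and in replicate 2 on the vertical axis. Most points lie right of 0 and below 0, whereas Hist3h2ba, Hist1h2aa and Hist1h2ba lie high on both axes.

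Hist3h2ba, an H2B gene of the Hist3 cluster (ENSMUSG00000056895, chr11:58762413-58763032, plus strand), was the member that passed the test. It had 77 and 47 counts in control replicates 1 and 2 and 700 and 390 in deleted replicates 1 and 2, or 3.39, 1.85, 29.7 and 21.1 CPM. Both deleted libraries lay well above both controls. Normalized CPM was 2.61 ± 1.11 (SD, n = 2) in controls and 26.0 ± 8.66 (SD, n = 2) in deleted cells. Hist3h2ba rose by 3.32 on the log2 scale (SE 0.42, adjusted p = 0.0367, edgeR's quasi-likelihood test after Benjamini-Hochberg adjustment). Its log2 fold change was 2.93 without deleted replicate 1. In quasi-likelihood fits without a library, which take the lone library of a group to vary like the other group, its adjusted p was 0.0251 without deleted replicate 1 and 0.0101 without deleted replicate 2. Over the alternatives its adjusted p ranged from 2.34e-16 without a low-count filter to 0.0651 with at least 10 counts required in every library, where the call was lost in edgeR's quasi-likelihood test. The call was also lost at 2-fold with an adjusted p under 0.01. Of its 31-base stretches, 38.6% occur elsewhere in the genome.

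Hist1h2aa and Hist1h2ba, known as the testis histones TH2A and TH2B, had the largest fitted increases among the tested members and did not pass the test. Hist1h2aa (chr13:24026331-24026720, plus strand) had 0 and 5 counts in control replicates 1 and 2 and 128 and 53 in deleted replicates 1 and 2. Hist1h2ba (chr13:24025637-24026025, minus strand) had 0 and 4 counts in the controls and 92 and 45 in the deleted libraries. Both genes were near the limit of detection in both controls and were clearly counted in both deleted libraries. The pooled CPM ratio of deleted to control was 41.5 for Hist1h2aa (95% exact interval 17.5 to 129, counting error only) and 39.3 for Hist1h2ba (15.0 to 146). The fitted log2 fold changes were 5.33 (SE 0.95) and 5.24 (SE 0.93), and both had an adjusted p of 0.0773 in edgeR's quasi-likelihood test after Benjamini-Hochberg adjustment. Over the alternatives the adjusted p of Hist1h2aa ranged from 6.92e-13 to 0.187 and that of Hist1h2ba from 4.77e-11 to 0.184, each lowest without a low-count filter and highest with the replicate block in edgeR's quasi-likelihood test. Both passed the low-count filter only through their deleted libraries and drop out when 10 counts are required in every library, so a test of either gene is conditioned on its high deleted counts, and calls on them by other tools or settings are not taken as support. The log2 fold changes were 4.43 and 4.34 without control replicate 1 and 9.52 and 9.13 without control replicate 2, which holds their few control counts, so the size of the change is uncertain. Without deleted replicate 1 the log2 fold changes were 4.66 and 4.72, and the adjusted p was 0.0725 and 0.0781 in edgeR's quasi-likelihood test.

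The pair stood apart from the rest of the Hist1 cluster. The annotated genes are 305 bases apart, transcribed away from each other, and 171 kb from the nearest other member, Hist1h3a. Among members with an annotated protein, TH2A was 88.5% identical to the commonest H2A protein and TH2B was 88.2% identical to the commonest H2B protein, while the protein of Hist3h2ba was 94.4% identical to the latter. For comparison, all 12 H4 genes encode the same protein of 103 residues, 5 of 6 H3 genes encode the same 136 residues, and 7 of 16 H2A genes encode the same 130 residues. Per kb of exon the increased genes stayed minor. Hist3h2ba reached 48.0 and 34.1 CPM per kb in deleted replicates 1 and 2, Hist1h2aa 13.9 and 7.36, and Hist1h2ba 10.0 and 6.26. The abundant H2B gene Hist1h2bb had 709 and 611 CPM per kb in controls and 602 and 357 in deleted cells.

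The promoters of the pair and of Hist3h2ba are shown because these members had the largest fitted increases, and they were chosen after their values were seen. They are RefSeq windows of 300 bases on GRCm38.p6. Capitals mark matches on either strand to the letters CCAAT of the box bound by the factor NF-Y, to the letters TATAAA of a core promoter box, to the octamer ATTTGCAT of histone H2B promoters and to the cAMP response element TGACGTCA:
Hist1h2aa promoter, chr13:23934187-23934486, plus strand: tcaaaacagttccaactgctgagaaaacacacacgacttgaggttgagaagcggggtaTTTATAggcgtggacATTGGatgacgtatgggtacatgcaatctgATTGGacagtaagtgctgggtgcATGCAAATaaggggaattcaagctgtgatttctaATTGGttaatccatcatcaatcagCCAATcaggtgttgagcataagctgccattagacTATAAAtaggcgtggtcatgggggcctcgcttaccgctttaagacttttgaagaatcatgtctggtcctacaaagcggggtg
Hist3h2ba promoter, chr11:58948661-58948960, plus strand: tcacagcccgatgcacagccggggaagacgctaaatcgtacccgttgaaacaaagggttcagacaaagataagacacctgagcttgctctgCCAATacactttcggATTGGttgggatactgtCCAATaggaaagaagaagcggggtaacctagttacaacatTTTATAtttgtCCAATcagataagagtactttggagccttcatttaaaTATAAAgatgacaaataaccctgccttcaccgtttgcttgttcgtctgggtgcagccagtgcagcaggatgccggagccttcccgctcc
The Hist1h2aa window covers most of the Hist1h2ba window, chr13:23934107-23934406 on the minus strand. It held 4 matches to CCAAT, 2 to TATAAA and 1 to the octamer, and the Hist3h2ba window held 4 to CCAAT, 2 to TATAAA and 0 to the octamer. A match is no more than these letters. Of the 53 members, 46 were matched to a promoter, and 38 of them held CCAAT on either strand, against 37.4% of all 32851 RefSeq promoters. TATAAA stood in 27 of the 46, against 13.6%, and the octamer in 7 of 16 H2A, 6 of 13 H2B, 0 of 6 H3 and 0 of 11 H4 promoters, against 1.74%. The cAMP response element stood in 4 of the 46, against 1.79%. The CCAAT box was in 16 of 16 H2A, 13 of 13 H2B and 6 of 6 H3 promoters and in 3 of 11 H4 promoters.

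Within 60 kb of Hist3h2ba, 9 other genes were tested, among them the members Hist3h2a and Hist3h2bb-ps. Of the 9, 1 was called, where 0.370% of all tested genes were called higher. All 9 had a positive fitted log2 fold change, from 0.014 for Zfp39 upward, against 7834 of all 16500 tested genes. Not every neighbour rose in both deleted libraries. Trim17, which overlaps an exon of Hist3h2a on the same strand, had 50 and 49 counts in controls and 27 and 92 in deleted replicates 1 and 2. For 2310058D17Rik these counts were 98 and 63 in controls and 60 and 116 in the deleted libraries. The called gene, Gm12260 (chr11:58775314-58775724, plus strand), lies 12.3 kb away. It is annotated as a pseudogene in NCBIM37 and is the protein-coding gene H3f4 in RefSeq, with H3t among its synonyms, a histone H3 of the testis. It falls outside the rule by name and was singled out after its values were seen. It had 17 and 11 counts in control replicates 1 and 2 and 6584 and 2350 in deleted replicates 1 and 2. Both deleted libraries were far above both controls. Gm12260 rose by 8.49 on the log2 scale (SE 0.60, adjusted p = 0.0120, edgeR's quasi-likelihood test after Benjamini-Hochberg adjustment), and 3.15% of its 31-base stretches occur elsewhere. Its log2 fold change was 7.67 without deleted replicate 1, and its call was lost at 2-fold with an adjusted p under 0.01. Per kb it had 1.82 and 1.05 CPM in controls and 681 and 310 CPM in deleted replicates 1 and 2. In each deleted library that was above Hist1h3e, with 447 and 246 CPM per kb, and Hist1h3b, with 388 and 225 CPM per kb, the H3 members with the highest levels per kb there. That order rests on annotated exon length, which is 411 bases for Gm12260, 836 for Hist1h3e and 620 for Hist1h3b. In plain CPM, Gm12260 was at 280 and 127 in deleted replicates 1 and 2, below Hist1h3e at 374 and 206. Hist1h3b was at 240 and 140 CPM, below Gm12260 in deleted replicate 1 and above it in deleted replicate 2. Of the 31-base stretches of Hist1h3e and Hist1h3b, 84.4% and 61.9% occur elsewhere, so their levels are lower limits, and with 5 H3 genes absent from the tables Gm12260 cannot be ranked among all H3 genes. Its stem-loop has the letters of the most frequent loop of the members, and those of Hist3h2ba, Hist1h2aa and Hist1h2ba are shown with it:
Gm12260, chr11:58775750-58775775, plus strand: ccaacGGCTCTTTTCAGAGCCaccca
Hist3h2ba, chr11:58762846-58762871, plus strand: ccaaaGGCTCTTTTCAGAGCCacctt
Hist1h2aa, chr13:24026755-24026780, plus strand: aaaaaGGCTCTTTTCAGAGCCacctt
Hist1h2ba, chr13:24025594-24025619, minus strand: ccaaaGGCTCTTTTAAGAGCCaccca
The other tested neighbours of Hist3h2ba, which include Rnf187 at 9.99 kb (log2 fold change 0.50), Trim17 (0.53) and Trim11 (0.20), were not called. Around Hist1h2aa, Hist1h2ba was the only other gene tested within 60 kb, and Slc17a1, Slc17a4 and Scgn had at most 7 counts in a library.

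The linker histone gene Hist1h1t, the testis H1 in the Hist1 cluster, is also outside the rule and was named after its values were seen. It had 91 and 86 counts in control replicates 1 and 2 and 735 and 496 in deleted replicates 1 and 2. Both deleted libraries were above both controls. Its log2 fold change was 3.01 (SE 0.30, adjusted p = 0.0254, edgeR's quasi-likelihood test after Benjamini-Hochberg adjustment), and 2.78 without deleted replicate 1. Its call was lost with at least 10 counts in every library and at 2-fold with an adjusted p under 0.01. Genes of male germ cells, a list of 15 added after these values were seen, summed to 5.41 and 6.34 CPM in controls and to 7.31 and 6.28 CPM in deleted cells, with overlapping groups, and none of the 4 that could be tested was called. Ldhc, the most abundant of them, had 43 and 71 counts in controls and 64 and 30 in deleted cells. The protamine genes Prm1 and Prm2 had at most 6 counts in a library, Sycp1 had 3, 0, 0 and 0, and Dazl had 5 and 5 in controls and 39 and 24 in deleted cells.

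**Figure D4:**
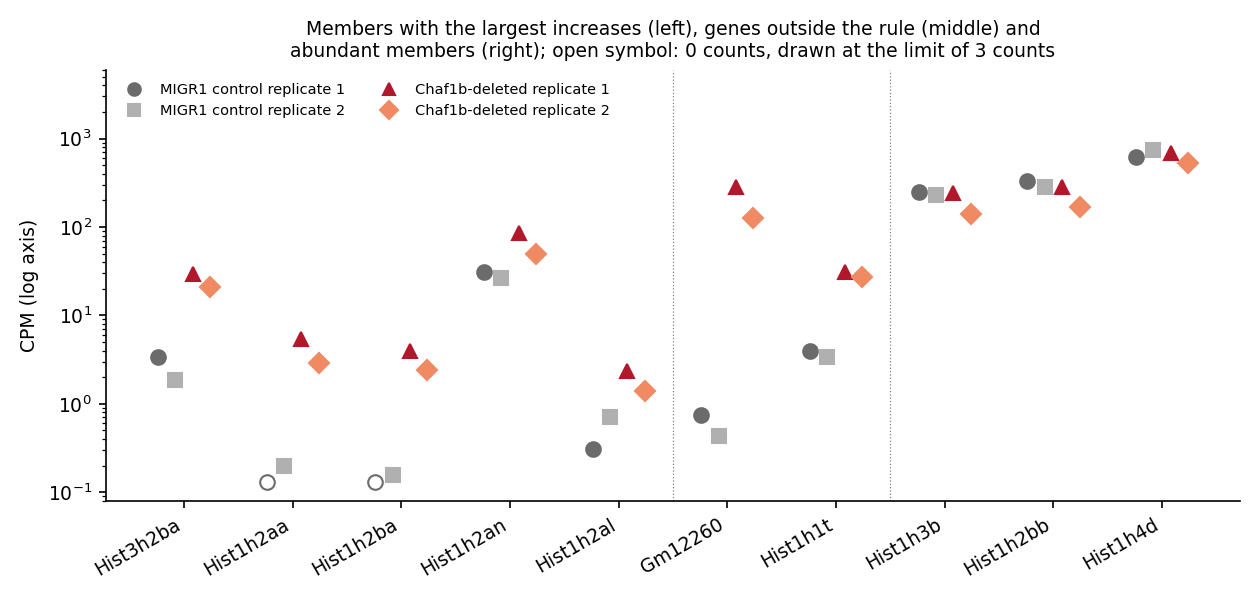
CPM of 10 genes in each of the 4 libraries on a log axis, with the 5 members of largest fitted increase on the left, Gm12260 and Hist1h1t in the middle and 3 abundant members on the right. The deleted libraries lie above the controls for each of the first 7 genes and not for the abundant members, and open symbols at the limit of 3 counts stand for 0 counts.

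The next largest increases were in H2A genes whose sequence is shared widely. Hist1h2an had 708 and 673 counts in control replicates 1 and 2 and 1992 and 912 in deleted replicates 1 and 2. Hist1h2al, which lies outside the main cluster at chr13:51298057-51298434, had 7 and 18 counts in controls and 55 and 26 in deleted cells. For both genes the deleted libraries were above the controls. Their log2 fold changes were 1.27 (SE 0.33) and 1.92 (SE 0.64), with adjusted p of 0.172 and 0.282 in edgeR's quasi-likelihood test after Benjamini-Hochberg adjustment. Over the alternatives the adjusted p ranged from 2.56e-04 to 0.286 for Hist1h2an and from 0.0408 to 0.932 for Hist1h2al in edgeR's quasi-likelihood test. Without deleted replicate 1 the log2 fold change of Hist1h2an was 0.70 and that of Hist1h2al 1.37, and Hist1h2an was called without control replicate 1, without deleted replicate 2, without a low-count filter, by edgeR's exact test and by DESeq2. Hist1h2al was called only without a low-count filter. With 7 and 18 counts in controls it needed a deleted library to pass the low-count filter. It drops out when 10 counts are required in every library. A test of Hist1h2al is thus partly conditioned on its deleted counts, and its call is not taken as support. Of the 31-base stretches of Hist1h2an and Hist1h2al, 89.0% and 83.9% occur elsewhere, and neither gene has the stem-loop letters. Whether part of their reads came from other copies was not tested.

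At the other end, 5 members had the lowest fitted changes, and none of them passed the test. Hist1h2bp had 264 and 106 counts in control replicates 1 and 2 and 90 and 87 in deleted cells, where control replicate 1 stood alone above the other libraries (log2 fold change -0.87, SE 0.51). Hist1h4n had 41 and 28 counts in controls and 27 and 12 in deleted cells (-0.63, SE 0.60). Hist2h4 had 6794 and 5582 counts in controls and 5190 and 2696 in deleted cells (-0.45, SE 0.31). After scaling to depth, the higher deleted value was not below the lower control for any of these 3 genes. Hist1h2bb, the most abundant H2B gene per kb, had 333 and 286 CPM in controls and 282 and 168 CPM in deleted replicates 1 and 2 (-0.41, SE 0.32). Hist1h2be had 171 and 99.6 CPM in controls and 101 and 107 CPM in deleted cells (-0.35, SE 0.28). The groups overlapped for Hist1h2be, and for Hist1h2bb deleted replicate 1 was just under control replicate 2 in CPM and no longer under it after TMM normalization. Without control replicate 1 the log2 fold change of Hist1h2bp was 0.054 and that of Hist1h2be 0.098, so their sign rests on that library. For Hist1h4n it was -1.23, for Hist1h2bb -0.97, for Hist2h4 -0.91, for Hist1h2bp -0.83 and for Hist1h2be -0.42 without deleted replicate 1, and without deleted replicate 2 it was 0.0095 for Hist1h2bb, -0.091 for Hist2h4, -0.19 for Hist1h4n, -0.90 for Hist1h2bp and -0.27 for Hist1h2be. The adjusted p of these 5 genes was between 0.555 and 0.740 in edgeR's quasi-likelihood test after Benjamini-Hochberg adjustment.

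For the 4 most abundant members of each class per kb, shares of the class are given beside levels. The choice rests on annotated exon length. Hist2h4, annotated with 1608 bases, is thus not among the 4 of H4. It was at 299 and 220 CPM in controls and 220 and 146 CPM in deleted cells. Hist1h4k, which is among them, was at 144 and 169 CPM in controls and 218 and 146 CPM in deleted cells. Of the H3 genes, which encode the protein that CAF-1 binds with H4 and of which 5 are absent from the tables, Hist1h3b held 36.3% and 37.9% of H3 counts in controls and 27.2% and 28.0% in deleted replicates 1 and 2. Hist1h3a held 11.5% and 10.5% in controls and 17.7% and 18.8% in deleted cells. Hist1h3e held 38.5% and 38.1% in controls and 42.4% and 41.2% in deleted cells, at 267, 231, 374 and 206 CPM. For these 3 genes the groups did not overlap, with Hist1h3b lower and the others higher in both deleted libraries. In levels, 22.3% of all tested genes had both deleted libraries above both controls and 21.4% had both below. No such rate was computed for shares. In every class the shares add up to the whole, so those of different genes depend on each other. Hist1h3c held 12.6% and 12.9% in controls and 12.3% and 10.8% in deleted cells, also without overlap and lower, at 87.2, 77.9, 108 and 53.8 CPM. In CPM, Hist1h3b was at 251 and 229 in controls and 240 and 140 in deleted cells, and Hist1h3a at 79.4 and 63.9 in controls and 156 and 93.9 in deleted cells. Their log2 fold changes were -0.29 (SE 0.32) and 0.85 (SE 0.32), with adjusted p of 0.786 and 0.329 in edgeR's quasi-likelihood test after Benjamini-Hochberg adjustment. Hist1h3a was above both controls in each deleted library and Hist1h3b was not below them in both. The log2 fold changes of Hist1h3e and Hist1h3c were 0.27 (SE 0.34) and 0.032 (SE 0.36). Without deleted replicate 1 the log2 fold changes were -0.87 for Hist1h3b, 0.31 for Hist1h3a, -0.36 for Hist1h3e and -0.70 for Hist1h3c, so the sign of the last 2 rests on that library. Without deleted replicate 2 that of Hist1h3b was 0.14. Hist1h3b and Hist1h3a share over 50% of their 31-base stretches with other places, at 61.9% and 58.9%.

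In the H2B class the gene with the largest share took a smaller share in both deleted libraries. Hist1h2bb held 28.4% and 29.3% of H2B counts in controls and 22.9% and 20.5% in deleted cells. Hist1h2bk held 6.01% and 7.60% in controls and 9.94% and 10.1% in deleted cells, at 70.4, 74.3, 123 and 82.2 CPM. The groups did not overlap for either gene, in opposite directions. Hist1h2bh held 15.4% and 14.5% in controls and 17.4% and 13.2% in deleted cells, at 181, 141, 214 and 108 CPM. Hist1h2bj held 10.6% and 11.3% in controls and 12.6% and 12.1% in deleted cells, at 124, 110, 155 and 99.2 CPM. In level, Hist1h2bk was above both controls in each deleted library, while Hist1h2bh and Hist1h2bj overlapped. The shares of Hist1h2bj did not overlap and were higher in deleted cells. Their log2 fold changes were 0.55 for Hist1h2bk (SE 0.28), 0.059 for Hist1h2bh (SE 0.37) and 0.17 for Hist1h2bj (SE 0.29). They were 0.10, -0.66 and -0.32 without deleted replicate 1, and that of Hist1h2bb was then -0.97. The direction for Hist1h2bh and Hist1h2bj thus depends on that library.

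In the H2A class the gene with the highest level, Hist1h2ak, had the largest share in each library. It held 24.4% and 28.0% of H2A counts in controls and 27.2% and 28.4% in deleted cells, and its level was 149 and 152 CPM in controls and 258 and 148 CPM in deleted replicates 1 and 2 (log2 fold change 0.49, SE 0.32). Hist2h2ac held 20.9% and 18.5% in controls and 20.3% and 20.6% in deleted cells, at 2893, 2546, 4546 and 1987 counts (0.46, SE 0.34). The groups overlapped for both. Hist1h2an held 5.11% and 4.88% in controls and 8.89% and 9.46% in deleted cells, and Hist1h2ab held 9.93% and 9.70% in controls and 8.42% and 7.03% in deleted cells, at 60.5, 52.7, 80.1 and 36.7 CPM (0.11, SE 0.39). For these last genes the shares of the groups did not overlap, in opposite directions. Without deleted replicate 1 the log2 fold changes were -0.10 for Hist1h2ak, -0.16 for Hist2h2ac and -0.71 for Hist1h2ab, so their sign rests on that library.

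The H4 genes, which encode identical proteins, were led by Hist1h4d, with the highest level per kb of any member. Its level was 1583 and 1910 CPM per kb in controls and 1738 and 1337 CPM per kb in deleted replicates 1 and 2 (log2 fold change -0.14, SE 0.28). Hist1h4c held 11.5% of H4 counts in each control and 15.1% and 13.9% in deleted cells (0.36, SE 0.28). For Hist1h4c the shares of the groups did not overlap, and its level did, at 219 and 228 CPM in controls and 333 and 223 CPM in deleted cells. Hist1h4h held 14.4% and 15.0% in controls and 13.3% and 14.9% in deleted cells, at 274, 297, 294 and 240 CPM (-0.059, SE 0.24). Hist1h4k held 7.55% and 8.55% in controls and 9.88% and 9.10% in deleted cells, at 144, 169, 218 and 146 CPM (0.27, SE 0.28). The levels of Hist1h4d, Hist1h4h and Hist1h4k overlapped between groups, and Hist1h4k held more of its class in both deleted libraries. Hist1h4a, with 45.1 and 48.2 CPM in controls and 84.9 and 68.3 CPM in deleted cells, had the largest increase of the H4 genes (0.76, SE 0.24, adjusted p = 0.250 in edgeR's quasi-likelihood test after Benjamini-Hochberg adjustment). Both deleted libraries were above both controls for Hist1h4a. The fits without deleted replicate 1 gave 0.47 for Hist1h4a, -0.47 for Hist1h4d, -0.083 for Hist1h4c, -0.33 for Hist1h4h and -0.18 for Hist1h4k. Those of Hist1h4c and Hist1h4k turned sign without that library, and those of Hist1h4d and Hist1h4h turned sign without deleted replicate 2.

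**Figure D5:**
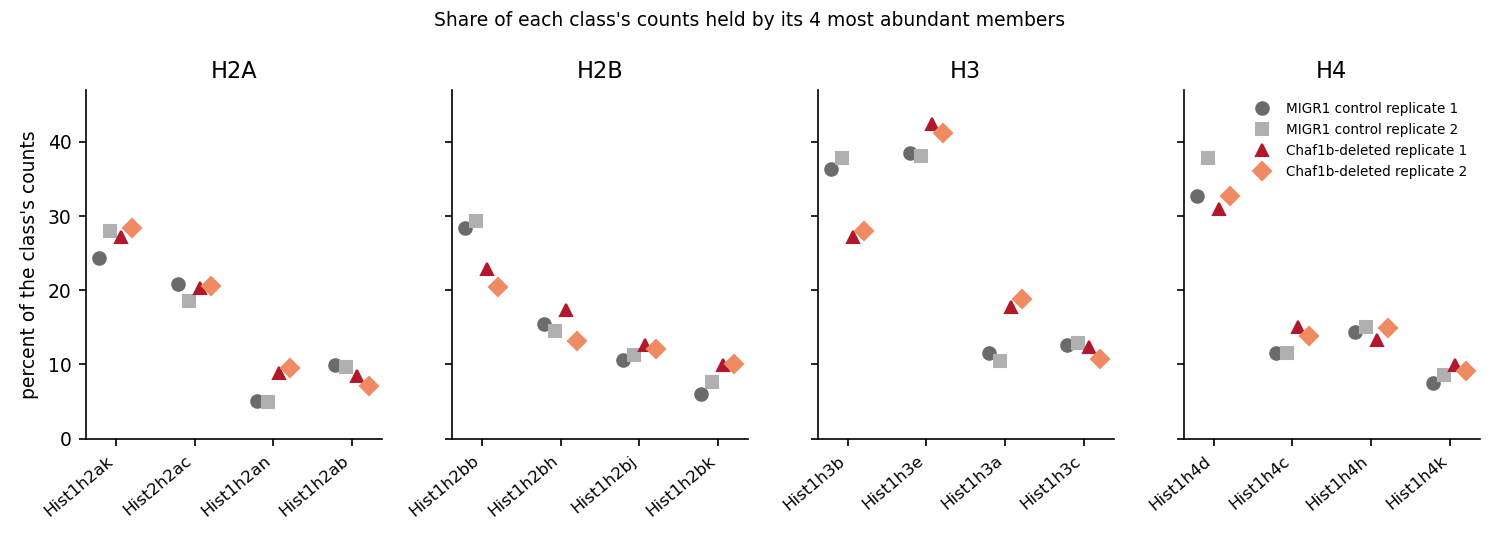
Points give the percent of each class's counts held by its 4 members of highest level per kb, in each of the 4 libraries. Hist1h3b and Hist1h2bb take a smaller share of their class in each deleted library than in either control, and Hist1h3a, Hist1h2an and Hist1h2bk a larger share. Shares within a class depend on each other, and no rate of such orders was computed for them.

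The remaining Hist2 and Hist3 members were expressed at low to moderate levels and none was called. Hist2h2be, an H2B gene without the stem-loop letters, had 591 and 220 counts in control replicates 1 and 2 and 263 and 462 in deleted replicates 1 and 2 (log2 fold change 0.046, SE 0.53). Hist2h2ab had 162 and 112 counts in controls and 147 and 94 in deleted cells (0.012, SE 0.41). Hist2h3c2, annotated as a pseudogene, had 179 and 90 counts in controls and 89 and 113 in deleted cells (-0.21, SE 0.48). The groups overlapped for all 3 genes. Hist2h2bb had 6, 1, 1 and 3 counts in the same order of libraries and was not tested. Hist3h2a, an H2A gene that shares an exon stretch with Trim17 on the same strand, had 344 and 141 counts in controls and 343 and 509 in deleted cells, or 15.1, 5.55, 14.6 and 27.6 CPM. Its deleted libraries were above the controls only after TMM normalization, since deleted replicate 1 was under control replicate 1 in CPM (1.02, SE 0.48). The pseudogene Hist3h2bb-ps had 331 and 197 counts in controls and 396 and 229 in deleted cells, with overlapping groups (0.43, SE 0.39). Without control replicate 1 the log2 fold changes were 1.06 for Hist2h2be, 0.49 for Hist2h3c2 and 1.92 for Hist3h2a, and Hist3h2a was then called. They were -0.55, -0.68 and 0.46 without control replicate 2 and -0.49, -0.45 and 0.64 without deleted replicate 2, so the signs of Hist2h2be and Hist2h3c2 and the size for Hist3h2a depend on single libraries. They were 0.44, 0.017 and 1.33 without deleted replicate 1, and that of Hist2h2ab ranged from -0.31 without control replicate 2 to 0.41 without control replicate 1. For Hist3h2bb-ps the log2 fold change was 0.96 without control replicate 1, 0.034 without control replicate 2, 0.069 without deleted replicate 1 and 0.74 without deleted replicate 2.

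Genes that make or process histone mRNA had no call. Of 21 such genes, matched from 25 symbols, 0 were called in either direction by edgeR's quasi-likelihood test and 0 had an unadjusted p under 0.05, and 0 were called by edgeR's exact test or DESeq2. With 0.370% of all tested genes called higher and 0.00606% lower, a list of this size would hold about 0 calls in any case. Both deleted libraries were below both controls for 7 of the 21, against 21.4% of all tested genes. Their median log2 fold change was -0.093, against -0.030 over all tested genes. Slbp, which binds the stem-loop, was at 138 and 118 CPM in controls and 126 and 125 CPM in deleted replicates 1 and 2 (log2 fold change -0.0016, SE 0.21). Npat, the coactivator of histone gene transcription, was at 93.6 and 91.9 CPM in controls and 55.9 and 77.0 CPM in deleted cells (-0.47, SE 0.21). Casp8ap2, a partner of Npat in the histone locus body, was at 191 and 157 CPM in controls and 118 and 147 CPM in deleted cells (-0.38, SE 0.21). For Npat and Casp8ap2 both deleted libraries were below both controls, and deleted replicate 1, with the most histone mRNA, had the least of each. Cpsf2 (-0.45, SE 0.21) was the other gene of the 3 lowest, and Zfp473 (0.19, SE 0.34), Lsm10 (0.13, SE 0.30) and Hinfp (0.10, SE 0.21) were the 3 highest. Lsm11, a protein of the U7 particle, was at 17.8 and 16.7 CPM in controls and 14.5 and 16.7 CPM in deleted cells (-0.12, SE 0.25).

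Of 26 histone chaperone genes, 1 was called lower, which was Chaf1b itself, and 0 were called higher by edgeR's quasi-likelihood test, its exact test or DESeq2. Over all tested genes the quasi-likelihood test called 0.370% higher and 0.00606% lower, and 3.14% and 2.85% were called higher by the exact test and DESeq2. No gene of the list was higher at an unadjusted p under 0.05, against 9.15% of all tested genes. The median log2 fold change was -0.22, and 8 genes had both deleted libraries below both controls, against 21.4% of all tested genes. Chaf1a, the other large CAF-1 subunit, was at 120 and 84.9 CPM in controls and 80.4 and 68.4 CPM in deleted cells (-0.43, SE 0.26). Asf1b, which hands H3 and H4 to CAF-1, was at 104 and 84.8 CPM in controls and 81.7 and 64.1 CPM in deleted cells (-0.33, SE 0.25). Nasp, which holds a reserve of H3 and H4, was at 241 and 166 CPM in controls and 152 and 144 CPM in deleted cells (-0.43, SE 0.25). For Chaf1a, Asf1b and Nasp the deleted libraries were below the controls, without passing the test. Hat1, which acetylates new H4, was at 120 and 86.4 CPM in controls and 95.8 and 94.9 CPM in deleted cells (-0.092, SE 0.24). After Chaf1b the lowest were Supt16h (-0.53, SE 0.23) and Atrx (-0.52, SE 0.25), and the highest Daxx (0.51, SE 0.34), Spty2d1 (0.43, SE 0.20) and Asf1a (0.22, SE 0.23).

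Genes of the cell cycle phases were counted as a comparison to the histone genes. Of 43 S-phase genes, which share Slbp and Mcm2 with the lists above, 0 were called in either direction by edgeR's quasi-likelihood test, its exact test or DESeq2, and 2 were lower and 0 higher at an unadjusted p under 0.05, against 3.10% and 9.15% of all tested genes. The median log2 fold change was -0.27, and 21 of the 43 had both deleted libraries below both controls, against 21.4% of all tested genes. Without control replicate 1 the median was -0.069. The median log2 ratio to the control mean was -0.17 in deleted replicate 1 and -0.36 in deleted replicate 2, and 0.17 and -0.19 in the controls, so in this list deleted replicate 1 was close to control replicate 2 and the controls were further apart. The lowest were Clspn (-0.81, SE 0.22), Lig1 (-0.53, SE 0.21) and Mcm6 (-0.51, SE 0.24), and the highest the cyclins Ccne1 (0.26, SE 0.28) and Ccne2 (0.18, SE 0.23) and the nuclease Fen1 (0.15, SE 0.36). Of 22 G2/M genes, 0 were called in either direction by edgeR's quasi-likelihood test, 8 were lower and 0 higher at an unadjusted p under 0.05 (3.10% and 9.15% of all tested genes), and 1 was called lower by edgeR's exact test and 1 by DESeq2, which called 35 and 32 of the 16500 tested genes lower. Their median was -0.41, with 18 of the 22 below both controls in both deleted libraries, with -0.18 in deleted replicate 1 and -0.52 in deleted replicate 2. The lowest were Mki67 (-1.10, SE 0.33), Cenpf (-0.84, SE 0.27) and Cenpe (-0.79, SE 0.23), and the highest Cdc20 (0.12, SE 0.25), Cdc25c (-0.092, SE 0.24) and Ccnb1 (-0.20, SE 0.22).

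The replacement histone genes are made outside S phase as well. Of 9 genes, 1 was called higher and 0 lower by edgeR's quasi-likelihood test, against 0.370% and 0.00606% of all tested genes. edgeR's exact test and DESeq2 each called 2 of them higher, against 3.14% and 2.85%. At an unadjusted p under 0.05, 2 were higher and 0 lower, against 9.15% and 3.10% of all tested genes. Their median log2 fold change was 0.25. H3f3b, an H3.3 gene, had 366 and 386 CPM in control replicates 1 and 2 and 1414 and 1237 CPM in deleted replicates 1 and 2, with both deleted libraries well above the controls (1.85, SE 0.26, adjusted p = 0.0429 in edgeR's quasi-likelihood test after Benjamini-Hochberg adjustment). With DESeq2's size factors, at least 10 counts in every library, the replicate block or without control replicate 1, H3f3b was no longer called. H2afx, whose mRNA can also end in the stem-loop, had 126 and 151 CPM in controls and 491 and 332 CPM in deleted cells (1.62, SE 0.29, adjusted p = 0.0798 in the same test of edgeR). H3f3a, the other H3.3 gene, had 10.9 and 9.60 CPM in controls and 11.2 and 19.0 CPM in deleted cells (0.56, SE 0.31). H2afy (-0.059, SE 0.25), H2afv (0.0023, SE 0.28) and H2afz (0.096, SE 0.23) were the lowest.

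Markers of blood cell types set the sample against its label. Kit, the gene of CD117, had 109 and 124 CPM in controls and 95.6 and 124 CPM in deleted replicates 1 and 2. The 9 HSPC genes summed to 8096 and 7838 CPM in controls and to 7257 and 5002 CPM in deleted cells, led by Mpo at 3417, 2683, 3362 and 2238 CPM. Both deleted libraries were below the controls in that sum, and 1 gene of the list, Flt3, was called higher. The 6 neutrophil genes summed to 19916 and 24733 CPM in controls and to 31030 and 24009 CPM in deleted cells, led by Ngp at 11014, 15266, 13033 and 11089 CPM. Neutrophil granule mRNA was thus abundant in all 4 libraries. The macrophage genes, led by Csf1r (59.5, 158, 98.6 and 89.8 CPM), summed to 164 and 479 CPM in controls and to 382 and 298 CPM in deleted cells. The mast cell and basophil genes, led by Cpa3 (328, 129, 264 and 363 CPM), summed to 1074 and 654 CPM in controls and to 835 and 893 CPM in deleted cells. The groups overlapped for both lists. Dendritic cell genes, led by H2-Ab1 (35.0, 144, 211 and 80.7 CPM), summed to 47.6 and 158 CPM in controls and to 256 and 123 CPM in deleted cells, and Flt3 is on that list too. Megakaryocyte genes, led by Itga2b (69.6, 62.5, 86.8 and 159 CPM), summed to 2304 and 2540 counts in controls and to 3603 and 4925 in deleted cells. For megakaryocyte genes both deleted libraries were above both controls, and no gene of the list was called. Erythroid genes, led by Car1 (36.1, 27.7, 15.3 and 23.4 CPM), summed to 86.9 and 54.9 CPM in controls and to 40.6 and 57.0 CPM in deleted cells. B cell genes, led by Ighm (27.4, 41.3, 55.6 and 31.8 CPM), summed to 42.5 and 59.2 CPM in controls and to 84.8 and 55.8 CPM in deleted cells. T and NK cell genes were close to absent, at 2.64 and 2.05 CPM in controls and 2.76 and 2.44 CPM in deleted cells, led by Cd3d (1.89, 1.85, 2.12 and 1.84 CPM). Stromal and endothelial genes, led by Pecam1 (216, 233, 267 and 248 CPM), summed to 241 and 245 CPM in controls and to 290 and 293 CPM in deleted cells. For this list too both deleted libraries were above both controls, and no gene of it was called. In these 10 lists, 0 genes lacked counts in all 4 libraries, and whether these cell types bear on the histone results was not tested.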

How the data were processed

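The labels name STAR, HTSeq and the mm9 genome. The deposited values are raw counts of reads per gene, 1 table per library, which the authors made with HTSeq. The strand setting and the annotation are not given in the sources used here, so overlapping genes on opposite strands cannot be told apart. NCBIM37, which is mm9 in Ensembl's naming, gave symbols to 33068 of 43629 identifiers. Lines that name no gene stayed out of library sizes. Of all lines, 34.6% and 35.0% lay outside genes in control replicates 1 and 2, and 29.3% and 40.8% in deleted replicates 1 and 2. Between 1.68% and 2.26% were ambiguous.

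Levels are counts per 1000000 counts on genes. Genes were kept by edgeR's filter with a minimum count of 10, normalized by TMM and compared between 2 control and 2 deleted libraries with glmQLFit and glmQLFTest of edgeR 4.0.16 in R 4.3.3, without a covariate, with Benjamini-Hochberg adjustment over 16500 genes. A called gene had at least a 1.5-fold change and an adjusted p under 0.05. The common dispersion was 0.0763. A standard error is the size of the log2 fold change divided by the square root of the test's F. Summed levels and shares were compared by exact permutation over libraries in scipy 1.17.1, 8 sums in all, and adjusted p was 1.00 for each sum. Scripts were tested on simulated data.

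Members and lists were chosen with earlier results of these data known. Named members were the 4 of highest level per kb in each class, all of Hist2 and Hist3, the 5 largest and 5 smallest fitted changes and all called members. Hist1h4a was named in addition for its value, the largest increase of the H4 genes. From each related list the 3 highest and 3 lowest genes and any called gene were named, with Chaf1b, Chaf1a, Slbp, Npat, Casp8ap2, Lsm11, Asf1b, Nasp and Hat1. Stem-loops were searched on the genome sequence, and stretches of 31 bases were matched to both strands. Symbols absent from the annotation were matched through RefSeq synonyms. Alternatives were DESeq2's size factors, library size, other filters, edgeR's exact test, DESeq2 1.42.0, a replicate block, stricter thresholds, other member sets and each library left out.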

Additional observations from a re-analysis of the deposited data

How the results depend on the processing

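The count of members called depended on the test and the filter. Members called higher numbered 1 in the reported fit, 6 without a low-count filter, 4 with edgeR's exact test, 4 with DESeq2, and 0 with at least 10 counts in every library or with 2-fold and an adjusted p under 0.01. In fits without a library, added after seeing the data, they numbered 1 to 5. No alternative called a member lower. Over the table, the genes called higher and lower were 61 and 1 as reported, 27 higher with DESeq2's size factors, 30 higher with library size only, 808 and 79 without a filter, 3 and 0 with 10 counts in every library, 518 and 35 with edgeR's exact test, 471 and 32 with DESeq2, 0 and 0 at the stricter thresholds, and 125 to 331 higher and 6 to 42 lower without a library. The cause was not tested.

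The labels give same-numbered libraries no shared animal or day, and with 2 pairs the numbers are not taken to pair them (correlation of replicate differences 0.0133). With the replicate block, 14 genes were called higher and 0 lower, 1 member was called higher, and the median of the members was 0.16. Under the replicate block the fitted log2 fold changes turned negative for Hist1h2ab (-0.031), Hist1h2bh (-0.047) and Hist1h3c (-0.086). With library size only they did for Hist1h3c (-0.027) and Hist2h2ab (-0.023). All of these lie near 0. Chaperones called lower became 0 with 10 counts in every library and with the replicate block.

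Without each library in turn, log2 ratios ranged from -0.30 to 0.31 for all members, -0.14 to 0.72 for H2A, -0.40 to 0.20 for H2B, -0.38 to 0.44 for H3, -0.27 to 0.18 for H4, -0.30 to 0.32 for Hist1, -0.47 to 0.11 for Hist2 and 0.89 to 2.01 for Hist3. Scaling by TMM or DESeq2's size factors moved the sum of all members to 0.087 and 0.093 and turned that of H4 to 0.017 and 0.020. With members under 50% shared sequence it was -0.049, with 0.11 for H2A, -0.0069 for H2B, -0.074 for H4, -0.017 for Hist1, -0.45 for Hist2 and 1.34 for Hist3, and the sum without Hist1h2aa, Hist1h2ba and Hist3h2ba, an alternative chosen after seeing the data, was 0.030. List medians ranged from -0.21 to -0.019 for histone mRNA processing, -0.39 to -0.12 for chaperones, -0.46 to -0.069 for S phase, -0.53 to -0.17 for G2/M and 0.18 to 0.29 for replacement histones. G2/M genes called lower numbered 1 without a filter, with edgeR's exact test and with DESeq2, and 0 to 1 without a library. Replacement histone genes called higher numbered 0 with DESeq2's size factors, with 10 counts in every library and with the replicate block, 2 without a filter, with edgeR's exact test and with DESeq2, and 0 to 2 without a library.

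The smallest change that 2 libraries a group can detect was not tested. In the reported fit the only member called had a log2 fold change of 3.32, so a member without a call may still have changed. Genes at a few counts rest on their filter. No H3 member had under 50% shared sequence, so that alternative gave no H3 value.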
